A study of Schizosaccharomyces pombe with 5 samples.

Results

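The cytosolic ribosomal protein genes of the fission yeast Schizosaccharomyces pombe were followed on 5 spotted oligonucleotide arrays. Members were all genes whose platform symbol begins with rpl, rps or rpp and continues in digits only, which gave 124 of 4929 genes and unnamed probe pairs, each with 2 oligonucleotides. All 124 had a value on every array, so no filter on missing values removed a member. They comprised 71 genes of the large subunit (rpl), 44 of the small subunit (rps), 7 of the stalk (rpp0, rpp101 to rpp103 and rpp201 to rpp203), and rpp1 and rpp40. The last 2 are symbols of RNase P subunits, an enzyme that processes transfer RNA precursors, and entered only because their names fit the pattern. The 3 tra1-1-labelled arrays paired Cy5-labelled cDNA of a tra1-1 mutant strain with Cy3-labelled cDNA of wild type. The 2 wild-type-labelled arrays carried wild-type cDNA in both dyes, as self-self hybridisations. All cells were grown at 30 degrees, and the labels give neither further genotype nor the change that the tra1-1 allele makes. Values are log ratios taken as log2, likely Cy5 over Cy3, and each array's median over all probes was set to 0. Neither the log base nor the channel in the numerator is stated with the values, and every sign below would turn if the ratio ran the other way.

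A ribosome is built of a small subunit, which decodes the messenger RNA, and a large subunit, which forms peptide bonds and carries a protruding stalk. The stalk protein P0 anchors dimers of the acidic proteins P1 and P2, which recruit the GTPase translation factors. Fission yeast keeps more than 1 gene for many ribosomal proteins, and the paralogs often encode nearly the same protein. Growing yeast cells make ribosomal protein messenger RNAs in large amounts and usually control them together through nutrient and TOR signalling. Tra1, whose gene is mutated here, is the fission yeast counterpart of human TRRAP and a scaffold of the SAGA acetyltransferase complex.

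The labels of the arrays are in doubt for tra1 itself. Its ratio was -1.41 and -2.04 on wild-type-labelled arrays 1 and 2, and 0.04, 0.02 and -2.21 on tra1-1-labelled arrays 1, 2 and 3. The ratio was thus below -1 on both self-self arrays, which compare the same strain in both dyes, and on tra1-1-labelled array 3. A ratio on a self-self array gives no transcript level. The groups keep their deposited labels below, and some of the counts and calls are also given without tra1-1-labelled array 3. The rest, such as the counts of groups that do not overlap, are given only with that array included. Arrays held values for 246 to 247 of the 248 member oligonucleotides. The number of arrays limits the precision, and over the 124 genes the standard error (SE) of the difference between groups had a median of 0.17. Separate cultures are not named in the labels, and the p-values therefore refer to the variation among these arrays, which may be technical.

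As a class, the 124 genes lay slightly above the middle of the genome on tra1-1-labelled arrays 1 and 2 and at the middle on the other 3. Their median ratio was 0.03 and -0.01 on wild-type-labelled arrays 1 and 2. It was 0.14, 0.18 and -0.02 on tra1-1-labelled arrays 1, 2 and 3, while the median of all 4907 genes measured on all arrays lay between -0.01 and 0.02. The higher medians occurred on the same pair of arrays on which the tra1 ratio was near 0. Large-subunit genes had medians of 0.04, -0.01, 0.14, 0.21 and -0.02 in that order of arrays. Small-subunit genes had 0.02, 0.00, 0.11, 0.13 and -0.02. Part of these values is 1 deposited number that recurs. The value -0.001 stood for 12 member oligonucleotides on tra1-1-labelled array 1 (4.86%, beside 0.336% of all probes) and for 18 on array 2 (7.29%, beside 0.539%). It stood for 0 and 4 on the wild-type-labelled arrays and for 1 on tra1-1-labelled array 3. After centring it reads 0.43 on tra1-1-labelled array 1 and 0.21 on array 2, where it equals the median of the large subunit. How these values arose was not tested. With them set to missing, the member medians on these arrays were 0.13 and 0.15. The large-subunit medians were then 0.13 and 0.22, and the small-subunit medians 0.11 and 0.07. The repeated value entered 15 member genes, among them rpl1001 on 4 arrays and rps1501 on 1. In bulk RNA a change of the whole class per cell and a change in the share of growing cells cannot be told apart.

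**Figure D1:**
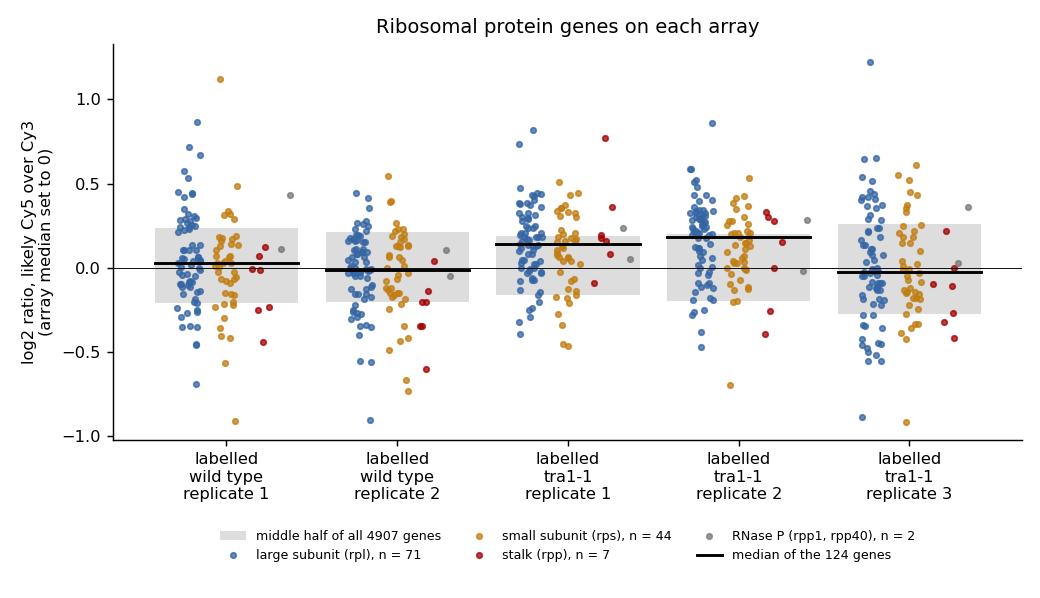
Log2 ratio of each ribosomal protein gene on the 5 arrays, with each array's median set to 0. Points are genes by class, black lines are the medians of the 124 genes, and grey bands run from the lower to the upper quartile of all 4907 genes. The black line sits at 0.14 and 0.18 on tra1-1-labelled arrays 1 and 2 and between -0.02 and 0.03 on the others.

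Ratios of ribosomal protein genes were less spread than those of the genome on every array. Their standard deviation over genes was 0.30, 0.25, 0.23, 0.24 and 0.33, in the order wild type 1 and 2 and tra1-1 replicates 1, 2 and 3. Over all genes it was 0.40, 0.39, 0.26, 0.30 and 0.45. Between 3.23% and 10.5% of the 124 genes were at least 0.5 from 0 on an array, beside 5.64% to 22.2% of all genes. Across the 124 genes, which are not independent replicates, tra1-1-labelled array 3 correlated with r = 0.64 and 0.67 with wild-type-labelled arrays 1 and 2. It correlated with 0.46 and 0.60 with tra1-1-labelled arrays 1 and 2. Over all genes the same values were 0.72, 0.74, 0.47 and 0.47.

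The main comparison asked whether transcript levels differ between the tra1-1 strain and wild type. No ribosomal protein gene passed limma's test of the 3 tra1-1-labelled arrays against the 2 labelled wild type, and none of 4907 genes did (0% called in either direction). The smallest adjusted p among members was 0.654, for rpp202. At an unadjusted p under 0.05, 5 members were higher and 1 was lower, which is 4.03% and 0.806% of the 124, beside 3.59% and 3.53% of all genes. The direction of the estimates was uneven, with 91 of 124 members (73.4%) above 0 against 49.4% of all genes. The median difference of the members was 0.08, or 1.05-fold, and that of all genes was 0.00. Their quartiles were -0.004 and 0.18. All 3 tra1-1-labelled arrays lay above both others in 24 members (19.4%, beside 11.3% of all genes). They lay below both others in 3 members (2.42%, beside 12% of all genes). These 3 were rpl1702, rpl3703 and rps2.

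**Figure D2:**
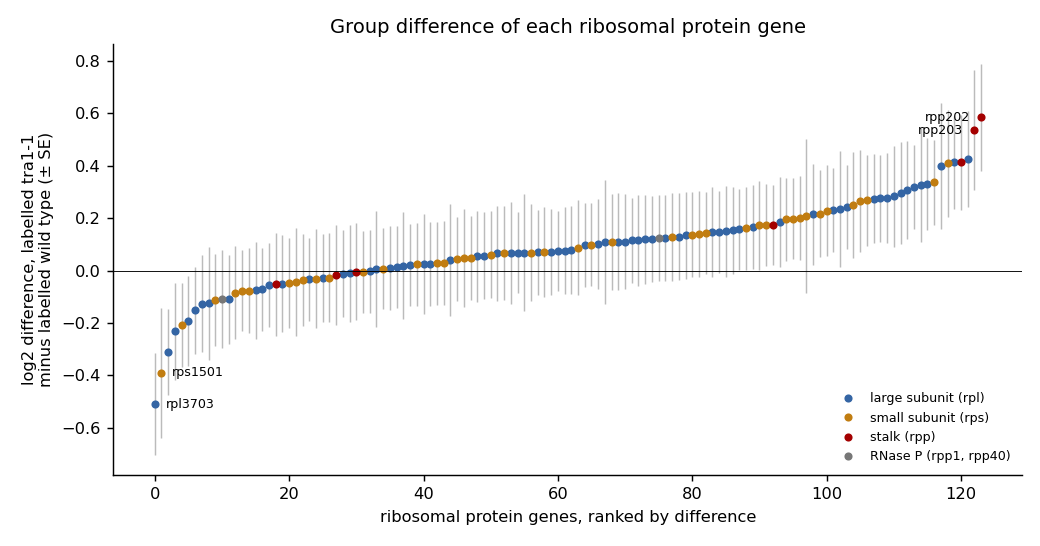
Difference in log2 ratio between tra1-1-labelled and wild-type-labelled arrays for each of the 124 genes, ranked, with its standard error from limma as a grey bar. Points run from -0.51 (rpl3703) to 0.58 (rpp202), and 91 of 124 lie above 0.

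The median difference stayed positive without any 1 array, between 0.06 without tra1-1-labelled array 2 and 0.13 without tra1-1-labelled array 3. With the values as deposited, not centred, it was 0.03, with 78 of 124 genes above 0. Leaving out the centring moves the difference of every gene by the same amount. The distance between the members and all genes is therefore unchanged there. Without the repeated value it was 0.07, with 85 of 118 genes above 0. Without tra1-1-labelled array 3, limma called 2 of the 124 genes, both of the stalk, and 4.18% of 4908 genes. A difference above 0 was then found in 97 of 124 members, 55 of 71 large-subunit genes and 35 of 44 small-subunit genes. The same count over all genes was not taken for this setting. The self-self arrays are the reference of every difference, so a gene that is off 0 on those arrays carries that into its difference.

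Among genes of the large subunit, 54 of 71 had a difference above 0, with a median of 0.08. rpl102, for a protein of the mobile L1 arm that clears used transfer RNA, had ratios of 0.13 and 0.17 on the wild-type-labelled arrays. On the tra1-1-labelled ones it had 0.74, 0.31 and 0.65. These groups did not overlap, and the difference was 0.41 (SE 0.18, limma adjusted p = 0.685). rpl2502, for a protein at the mouth of the peptide exit tunnel, had 0.67 and 0.41 on the wild-type-labelled arrays and 0.82, 0.86 and 1.22 on the tra1-1-labelled ones. It was the highest member on the latter group, and its difference was 0.43 (SE 0.18, limma adjusted p = 0.685). rpl22, rpl3202 and rpl2802 also had all 3 tra1-1-labelled arrays above the others, with differences of 0.32, 0.33 and 0.28. None of these 3 passed the test.

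Of the large-subunit genes, 17 had a difference below 0. rpl3703, a gene of the protein L37, stood at 0.87 and 0.27 on the wild-type-labelled arrays and 0.13, 0.00 and 0.05 on the tra1-1-labelled ones. The rpl3703 difference was the lowest of all members, -0.51 (SE 0.19), and missed the threshold with a limma adjusted p of 0.685. Without wild-type-labelled array 1 it was -0.21, and without wild-type-labelled array 2 it was -0.81. rpl1702, for a second protein at the exit tunnel, had -0.10 and -0.03 on the wild-type-labelled arrays and -0.32, -0.25 and -0.55 on the tra1-1-labelled ones. Its difference was -0.31 (SE 0.16, limma adjusted p = 0.739). rpl1001, for a protein near the peptidyl transferase centre, differed by -0.23, rpl802 by -0.19 and rpl2702 by -0.13. The rpl1001 oligonucleotides had differences of 0.06 and -0.53. The latter stood at 1.37 on wild-type-labelled array 1 and held the repeated deposited value on its other arrays. rpl301 (-0.11), for the large-subunit protein L3, and rpl18 (-0.15) also lay below 0, and none of these 5 genes passed. In all 5 the groups overlapped. The gene ID given for rpl18 was the only one of 124 without a match in the reference gene table.

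Among genes of the small subunit, 32 of 44 had a difference above 0, with a median of 0.07, and none reached an unadjusted p under 0.05. rps2601, whose protein lies where messenger RNA leaves the small subunit, stood at -0.29 and -0.49 on the wild-type-labelled arrays. On the tra1-1-labelled ones it stood at -0.18, -0.01 and 0.02, all above the others. Its difference was 0.34 (SE 0.16, limma adjusted p = 0.709). rps403 had the larger difference, 0.41, but its groups overlapped, with -0.36 and -0.73 against 0.17, -0.20 and -0.39. On the lower side, rps2, whose protein is the known substrate of the arginine methyltransferase Rmt3, had 0.31 and 0.23 against -0.07, 0.07 and 0.18 (difference -0.21, limma adjusted p = 0.81). rps001 differed by -0.11 with overlapping groups.

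The 2 highest differences of all members were those of stalk genes. rpp202, a gene of the stalk protein P2, had ratios of -0.44 and -0.60 on the wild-type-labelled arrays. On the tra1-1-labelled ones it had 0.18, 0.33 and -0.32. All 3 of the latter lay above both others, but the third was nearer to them than to its own group. The group means were -0.52 ± 0.11 (SD, n = 2) and 0.06 ± 0.34 (SD, n = 3), and the difference was 0.58 (SE 0.21, limma adjusted p = 0.654). rpp203, a further P2 gene, had -0.23 and -0.20 against 0.77, 0.28 and -0.09, a difference of 0.54 (SE 0.23, limma adjusted p = 0.685). The P1 gene rpp101 took a like course, with -0.25 and -0.20 against 0.36, 0.30 and -0.11, a difference of 0.41 (SE 0.18, limma adjusted p = 0.689).

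With all arrays included, not all stalk genes followed. The P2 gene rpp201 had -0.01 and 0.04 against 0.20, 0.15 and 0.22, again without overlap, but with a difference of only 0.17. The P1 genes rpp102 and rpp103 and the anchor gene rpp0 had differences of -0.05, -0.004 and -0.02, and their groups overlapped. rpp102, for example, had 0.07 and -0.14 on the wild-type-labelled arrays and 0.16, 0.00 and -0.42 on the tra1-1-labelled ones. The 3 stalk genes with the highest differences, rpp202, rpp203 and rpp101, were lower on tra1-1-labelled array 3 than on the other 2 of that label. A difference above 0 was found in 6 of the 7 stalk genes without tra1-1-labelled array 3, with a median of 0.16. The difference of rpp102 was then 0.11. Without that array the differences of rpp202 and rpp203 were 0.78 and 0.74, and both passed (limma adjusted p = 0.00808 and 0.0217). When each array was left out in turn, the limma adjusted p of both genes reached 0.996 at the highest. With array weights limma called rpp202 alone of the members, beside 1.94% of all genes.

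**Figure D3:**
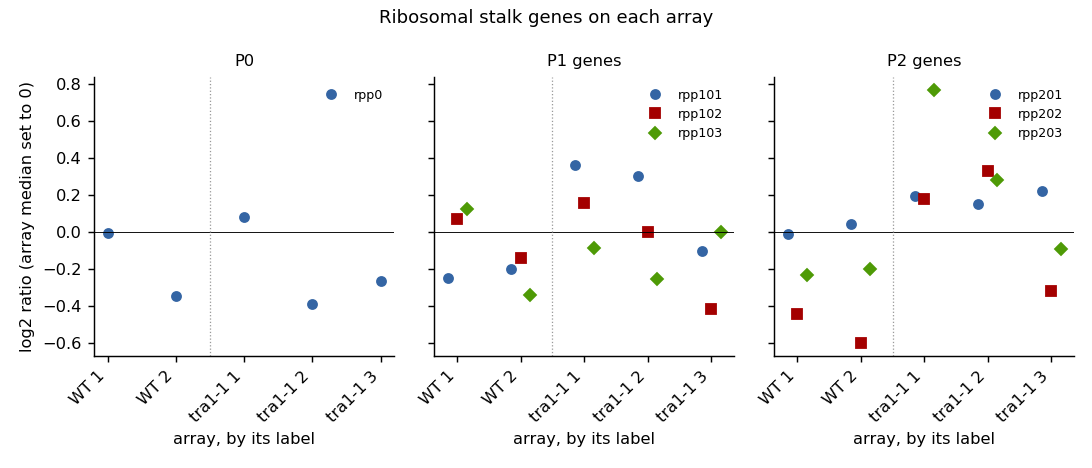
Log2 ratio of the 7 stalk genes on each array, by label, with wild-type-labelled arrays (WT) to the left of the dotted line. rpp202 lies at -0.44 and -0.60 to the left and at 0.18, 0.33 and -0.32 to the right. rpp0 shows no separation of the labelled groups.

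Paralogs were compared next, as genes that share a prefix and protein number and differ in the last digits of the symbol. There were 46 such families, 42 pairs and 4 families of 3, with 96 genes in all. In 25 families every paralog had a difference above 0, in 2 every paralog lay below it, and in 19 the paralogs differed in sign. The median gap between the highest and lowest paralog of a family was 0.17 in group difference, and 30 of 46 gaps were under 0.2. For comparison, the median gap between the 2 oligonucleotides of a single member gene, also in group difference, was 0.17. A gene's value averages its 2 oligonucleotides, so these gaps are not on the same footing, and they are set side by side as a description. The gaps were not tested.

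**Figure D4:**
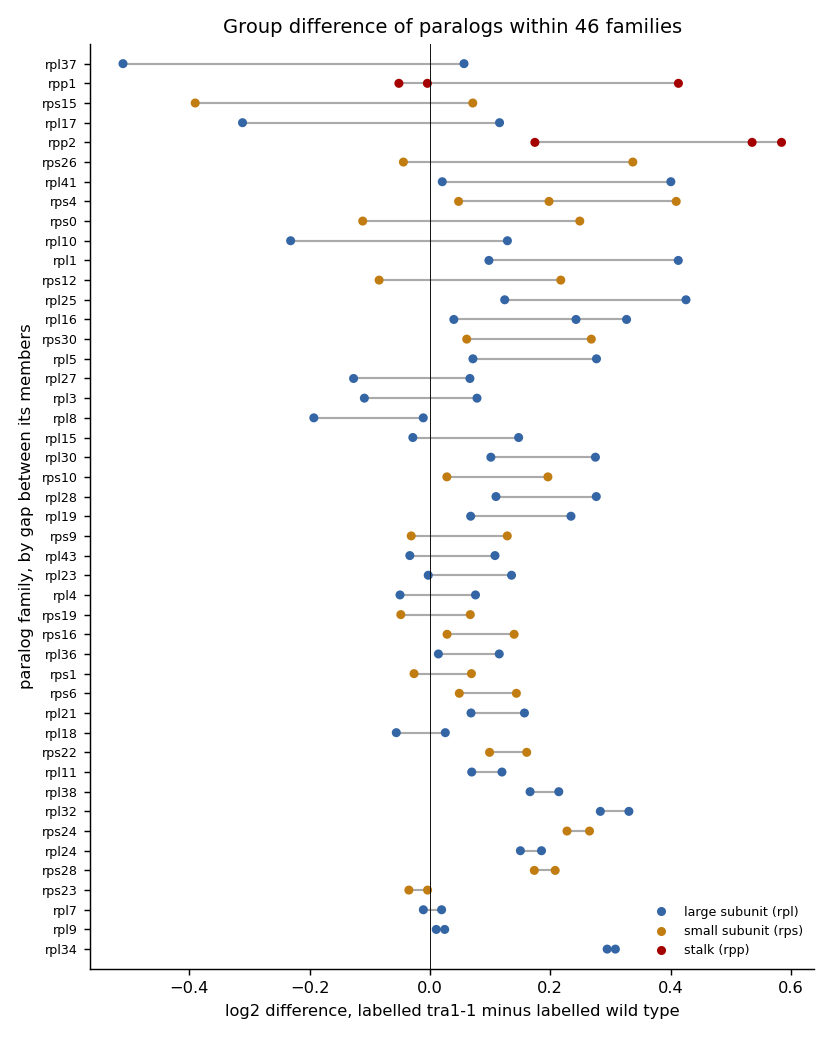
Difference in log2 ratio between tra1-1-labelled and wild-type-labelled arrays for the 96 genes of the 46 paralog families, ordered by the gap within a family. Grey lines join paralogs. Gaps run from 0.01 (rpl34) to 0.57 (rpl37), and only the rpl37 gap exceeds 0.5.

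The families with the largest gaps were rpl37, rpp1 (the stalk genes rpp101 to rpp103), rps15, rpl17, rpp2 and rps26, with gaps of 0.57, 0.46, 0.46, 0.43, 0.41 and 0.38. In the rpl37 family, rpl3702 had 0.00 and 0.15 on the wild-type-labelled arrays and 0.17, 0.27 and -0.04 on the tra1-1-labelled ones, a difference of 0.06. rpl3702 minus rpl3703 was -0.86 and -0.12 under the wild type label and 0.05, 0.27 and -0.09 under the tra1-1 label. The gap was widest on wild-type-labelled array 1. In the rpl17 family, rpl1701 differed by 0.12 while rpl1702 differed by -0.31. rpl1701 minus rpl1702 was 0.15 and -0.16 on the wild-type-labelled arrays and 0.56, 0.27 and 0.44 on the tra1-1-labelled ones, without overlap. In the rps26 family, rps2602 differed by -0.04, and its ratios of 0.17 and -0.07 against -0.21, 0.38 and -0.15 overlapped. Across families the groups of within-family gaps did not overlap in 8 of 46, but the gap was defined by the paralogs' own differences, so this number is a description.

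Other families had nearly equal differences. The smallest gaps were those of rpl34, rpl9 and rpl7, with 0.01, 0.01 and 0.03. Both rpl34 genes had differences near 0.3, rpl3401 with 0.29 and rpl3402 with 0.31. Ratios of rpl3401 were -0.16 and -0.01 on the wild-type-labelled arrays and 0.32, 0.43 and -0.13 on the tra1-1-labelled ones. rpl901 and rpl902 differed by 0.02 and 0.01, and rpl701 and rpl702 by 0.02 and -0.01. In each rpl9 and rpl7 gene the 2 oligonucleotides had opposite signs, such as 0.20 and -0.18 in rpl902 and 0.10 and -0.12 in rpl702. The same held for rpl3402 (0.71 and -0.09). A like difference did not mean a like ratio, because rpl702 exceeded rpl701 on all 5 arrays, by 0.05 to 0.88.

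Such a fixed order was found in part of the pairs. In 19 of the 42 pairs the same paralog was higher on all 5 arrays, the self-self arrays included. How often 2 genes that are not paralogs keep such an order was not computed, so the count is a description. rpl2502 exceeded rpl2501 by 0.96 and 0.57 on the wild-type-labelled arrays and by 0.84, 0.86 and 1.50 on the tra1-1-labelled ones. rpl2501 had ratios between -0.29 and 0.00. rps602 exceeded rps601 by 0.46 to 0.81 on the 5 arrays. Across the 42 pairs the ratio of a gene on an array bore no clear relation to that of its paralog, with r between -0.19 and 0.03 over pairs on the 5 arrays. These pairs share the array and its dyes, and the probe sequences were not used here, so whether an oligonucleotide tells near-identical paralogs apart was not tested.

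The 2 oligonucleotides of a gene gave a further view of each difference. Over the members they correlated with r = 0.31, 0.26, 0.24, 0.21 and 0.27 on wild-type-labelled arrays 1 and 2 and tra1-1 replicates 1, 2 and 3. Over all genes the values were 0.41, 0.40, 0.13, 0.12 and 0.38. In group difference the 2 oligonucleotides had the same sign in 73 of 122 members with every value (59.8%), beside 56.6% of all genes. Those of rpp202 matched closely, with differences of 0.56 and 0.61, and so did those of rpl2502 with 0.48 and 0.37. Those of rpp203 had 0.39 and 0.68, of rpl3703 -0.38 and -0.64, and of rpp101 0.47 and 0.35.

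The largest gaps between oligonucleotides were those of rps1501 and rpl3402. For rps1501, whose protein S15 sits in the head of the small subunit, 1 oligonucleotide stood at 2.09 on wild-type-labelled array 1 and between 0.21 and 0.64 on the other 4. Its partner stood between 0.06 and 0.40 on all 5. The rps1501 difference was -0.39 with both, 0.04 with the partner alone, and 0.06 without wild-type-labelled array 1. The rpl3402 oligonucleotides had differences of 0.71 and -0.09. In rps2802, 1 oligonucleotide stood at -1.64 on wild-type-labelled array 1 and -1.46 on tra1-1-labelled array 3, and had no value on wild-type-labelled array 2. The other rps2802 oligonucleotide stood between -0.36 and 0.13. The smallest gaps were those of rps23 and rpl803, and both genes had differences near 0 (-0.004 and -0.01).

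**Figure D5:**
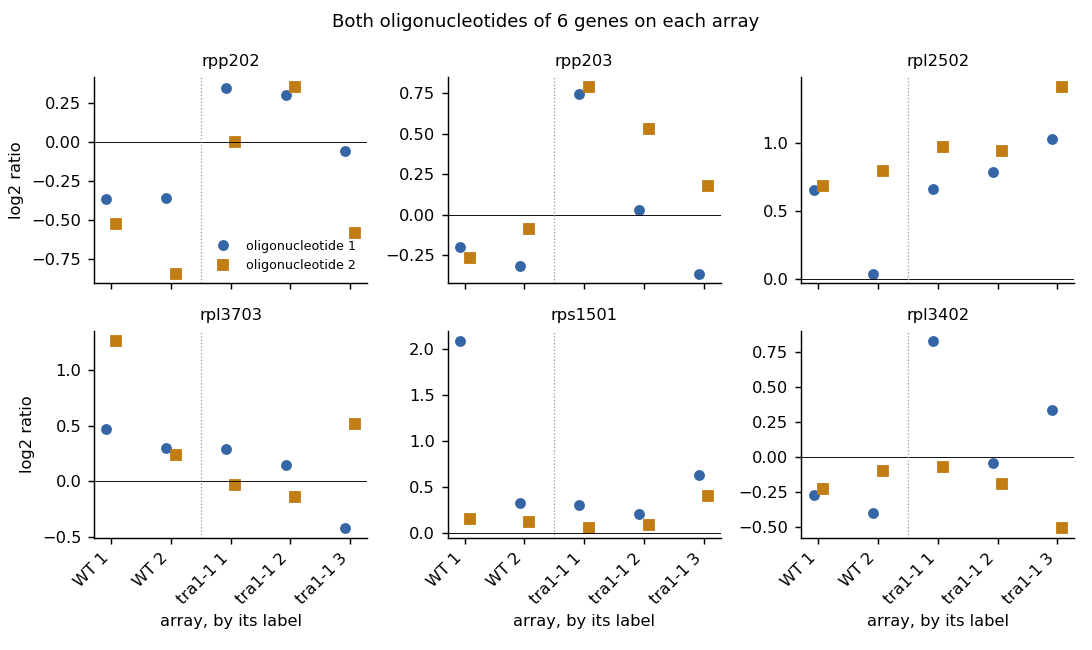
Log2 ratio of both oligonucleotides of 6 genes on each array, by label, with wild-type-labelled arrays (WT) left of the dotted line. The 2 oligonucleotides of rpp202 lie below 0 on both wild-type-labelled arrays. A single oligonucleotide of rps1501 stands at 2.09 on 1 array, and its partner there stands at 0.15.

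Ratios were then tested against 0 within each label, since a self-self array compares the same strain in both dyes. On the wild-type-labelled arrays limma called 3 members above and 2 below 0, which is 2.42% and 1.61% of the 124, beside 6.4% and 4.99% of all genes. Those above were rps1501 at 0.67 ± 0.63 (SD, n = 2, limma adjusted p = 0.0477), rpl3703 at 0.57 ± 0.42 (SD, n = 2, limma adjusted p = 0.0376) and rpl2502 at 0.54 ± 0.18 (SD, n = 2, limma adjusted p = 0.0366). Those below were rpl1603 at -0.80 ± 0.15 (SD, n = 2, limma adjusted p = 0.0173) and rps1401 at -0.54 ± 0.18 (SD, n = 2, limma adjusted p = 0.0369). On wild-type-labelled array 1, the oligonucleotides stood at 2.09 and 0.15 for rps1501 and at 1.27 and 0.47 for rpl3703. On wild-type-labelled array 2 these 2 genes had ratios of 0.23 and 0.27. rpl1001 (0.46), rps29 (0.43), rps403 (-0.55), rps2802 (-0.54) and rpp202 (-0.52) were the others among the 5 highest and 5 lowest means and did not pass. At an unadjusted p under 0.05, 12 members lay above and 12 below 0 (9.68% each), beside 16.5% and 13.5% of all genes. Estimates were above 0 in 64 members (51.6%), beside 51.3% of all genes. Without tra1-1-labelled array 3, whose spread enters this fit, 22 members (17.7%) passed, beside 27.9% of all genes.

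On the tra1-1-labelled arrays limma called 6 members above 0 (4.84%, beside 5.6% of all genes) and 0 below (beside 2.22% of all genes). At an unadjusted p under 0.05 there were 28 members above and 6 below 0 (22.6% and 4.84%), beside 15.2% and 13.6% of all genes. Estimates were above 0 in 83 members (66.9%), beside 48.5% of all genes. The 6 called genes were rpl2502 at 0.97 ± 0.22 (SD, n = 3, limma adjusted p = 0.0107), rpl102 at 0.57, rpl3602 at 0.46, rpl6 at 0.44, rpl2402 at 0.44 and rpl1602 at 0.43, all of the large subunit. The lowest means, none past the test, were those of rpl1603 (-0.47), rps1401 (-0.43), rpl1801 (-0.39), rpl1702 (-0.37) and rps601 (-0.36). rpl2502 was the only member called above 0 under both labels (0.806% of members, beside 3.1% of all genes). rpl1603 had ratios of -0.69 and -0.91 on the wild-type-labelled arrays and -0.15, -0.38 and -0.89 on the tra1-1-labelled ones. On all 5 arrays the ratio was above 0 in 35 members and below 0 in 12 (28.2% and 9.68%, beside 20.4% and 17.2% of all genes). Without tra1-1-labelled array 3, 27 members (21.8%) passed, beside 22.4% of all genes. Without replicate 1 or replicate 2 of that label 1 member passed in each case (0.806%), beside 2.85% and 1.32% of all genes.

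The ribosomal protein S6, a classic target of phosphorylation under TOR signalling, is encoded by rps601 and rps602. rps601 stood at -0.41 and -0.42 on the wild-type-labelled arrays and -0.47, -0.20 and -0.42 on the tra1-1-labelled ones. rps602 stood at 0.07 and 0.17 against 0.34, 0.25 and 0.21. Their differences were 0.05 and 0.14, and neither passed the test. psk1, which encodes an S6 kinase, stood at 1.22 and 1.00 on the wild-type-labelled arrays and -0.01, 0.13 and 0.72 on the tra1-1-labelled ones. The psk1 difference was -0.83 (SE 0.22, limma adjusted p = 0.625), and without tra1-1-labelled array 3 it was -1.05 (limma adjusted p = 0.000622). In the fit without that array 4.18% of 4908 genes passed. Against 0, psk1 passed on the self-self arrays, with a mean of 1.11 (limma adjusted p = 0.0066). Its mean on the tra1-1-labelled arrays, 0.28, did not pass (limma adjusted p = 0.249). In the list of 18 TOR pathway and S6 kinase genes, 4 had a difference above 0 and the median was -0.17, against 0.00 for all genes. After psk1 the smallest p were those of the TOR kinase gene tor1 (-0.65) and of ste20 (-0.32), a subunit gene of its complex.

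Genes linked to transcription of ribosomal protein genes had differences mostly below 0, and a relation to the ribosomal protein genes was not tested. Of 7 such genes, 1 had a difference above 0, and the median was -0.28. sfp1, whose budding yeast namesake activates ribosomal protein genes, had 0.82 and 0.24 on the wild-type-labelled arrays and -0.28, -0.44 and 0.60 on the tra1-1-labelled ones. The difference of sfp1 was -0.57 (limma adjusted p = 0.732), and it was -0.89 without tra1-1-labelled array 3 (limma adjusted p = 0.0093). In the fit without that array 4.18% of 4908 genes passed. ifh1, named after the budding yeast partner of Fhl1, differed by -0.47, and cka1, a casein kinase 2 gene, by -0.34. No gene of this list passed over the 5 arrays.

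Other lists of the translation machinery are given as counts, and none was tested against the ribosomal protein genes. Initiation factor genes had a median difference of 0.09, with 8 of 15 above 0 and a range from -0.22 to 0.46. tif452, for a second cap-binding protein, differed by 0.46, with -0.33 and -0.19 on the wild-type-labelled arrays and 0.41, 0.07 and 0.11 on the tra1-1-labelled ones. tif212 and tif211, for subunits of the factor eIF2, differed by 0.35 and 0.29. Elongation and release factor genes had a median of 0.05 with 7 of 9 above 0. The repeated deposited value enters this list too. tef102 and tef103 read 0.43 and 0.21 on tra1-1-labelled arrays 1 and 2, and tef101 reads 0.21 on array 2. Ribosomal proteins named outside the pattern (ubi1, ubi2, ubi3, ubi5 and cpc2) had a median of 0.09 with 4 of 5 above 0. Nascent chain factors had 0.03 with 3 of 4 above 0, and genes of ribosomal protein modification and assembly had -0.03 with 4 of 9. None of these genes passed the test. The RNase P genes rpp1 and rpp40 differed by -0.11 and 0.12, and leaving them out kept the median of the members at 0.08.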

How the data were processed

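Per the labels, cDNA made from total RNA was coupled to Cy5 or Cy3 and hybridised in pairs to 5 arrays, for which the authors deposited a log ratio per probe, taken here as log2. The scanner, background correction, normalization within arrays, log base and numerator remain unknown (not given in the sources used here). Channel intensities were not analysed here. Each of 9858 probes was named through the platform annotation, in which 9632 had 1 symbol, 44 had several and 182 were not listed. Arrays were centred on their medians, which were -0.23, -0.39, -0.43, -0.21 and -0.43 as deposited. The 2 oligonucleotides of a gene were averaged, or the remaining value was used (rps1502 and rps2802 among members). A deposited value of -0.001 recurs among member oligonucleotides and was kept in the main setting. Of 4929 genes and probe pairs, 4907 had a value on every array. For 123 of 124 members the gene ID and symbol matched the reference table of ASM294v3, used for names only. Coordinates and sequences were not used here.

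Tests were fitted over all 4907 genes by limma 3.58.1 (R 4.3.3; lmFit, then eBayes), 2-sided, with Benjamini-Hochberg adjustment at 0.05. The tra1-1 minus wild type difference and the wild type ratio against 0 used all 5 arrays, and the tra1-1 ratio against 0 used its 3 arrays. Scripts were tested on simulated data. Members, gene lists and the rule for named genes were chosen with earlier results of these data known. The rule took the 10 members per direction with the smallest p, the 5 highest and lowest means under each label, the stalk genes, the 6 families with the largest and 3 with the smallest gap, rps601, rps602, rpp1, rpp40, and the 2 largest and smallest oligonucleotide gaps. It also took up to 3 genes of each further list by the smallest p and psk1. After values were seen this was narrowed to the 3 lists in which a gene had an unadjusted p under 0.05, and the other lists are given as counts. The reference table has no product column, so the alternative that keeps only ribosomal proteins was run as leaving out rpp1 and rpp40. The choices on families that follow were made after the files were seen, before gaps were computed. rpl8, which names another protein than rpl802 and rpl803, and rpl18 were kept out of the families, while rpl15 and rps23 were joined to rpl1502 and rps2302. Older symbols were updated through the reference table, except nip1, whose synonym names another gene. Set tests were not run. Plots came from Python 3.11.15 and matplotlib 3.10.9.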

Additional observations from a re-analysis of the deposited data

How the results depend on the processing

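The group difference called 0 of 124 members with the values as deposited, quantile or scale normalization, either oligonucleotide alone, only genes with both oligonucleotides, a robust prior, all genes with a value in each group, or without rpp1 and rpp40. It called 1 member (rpp202) with array weights, and 0 to 2 when each array was left out. The labels do not say whether the replicate numbers pair the arrays. Same-numbered arrays deviated from their group means with r = 0.04 and -0.03. These values cannot decide it, because the 2 wild-type-labelled arrays deviate from their mean by equal amounts in opposite directions. With the replicate number as a block 5 members were called, all higher (rpp202, rpp203, rpp101, rps403 and rpl1603), among 329 of 4907 genes. Replicate 3 exists only under the tra1-1 label, so this fit also takes that array out of the difference, and its estimates for rpp202 and rpp203 (0.776 and 0.742) equal those without tra1-1 replicate 3. Members called on the arrays labelled wild type against 0 numbered 5 in the main setting and 29 with the values as deposited. They numbered 9 with quantile and 12 with scale normalization. With the oligonucleotide of the lower and higher probe ID 10 and 3 were called (8.13% and 2.44%, beside 10.4% and 11.4% of all genes). With both oligonucleotides required there were 8 (6.56%, beside 12.8%). A robust prior gave 9 (7.26%, beside 11.5%) and array weights gave 20 (16.1%, beside 24.2%). The count was 1 to 22 when each tra1-1-labelled array was left out. On those labelled tra1-1 the members called numbered 6 in the main setting, and 42, 14 and 15 under the first 3 of these settings. With the lower probe ID 13 were called (10.6%, beside 13.8% of all genes), and with the higher 8 (6.5%, beside 11.5%). With both oligonucleotides required there were 7 (5.74%, beside 8.97%). A robust prior gave 13 (10.5%, beside 10.7%) and array weights gave 21 (16.9%, beside 18.1%). The count was 1 to 27 when each array was left out. As deposited, those called were 0 above and 29 below 0 for wild type (3 and 2 in the main setting) and 1 above and 41 below for tra1-1 (6 and 0). With 1 wild-type-labelled array left out, the remaining one was assumed to vary like the other group. Calls over all genes moved with these settings, from 11.4% in the main setting to 31.8%, 15.3% and 17.4% for wild type and from 7.83% to 53.3%, 12.8% and 13.7% for tra1-1 under the first 3, and the share of members called was below that of all genes in each of these. Without the repeated value of -0.001, an alternative chosen after seeing the data, 118 members were tested, and the median difference was 0.0721. The group difference then called 0 members, and 0% of 4894 genes. The ratios against 0 called 5 members for wild type (4.24%, beside 11.4% of all genes) and 7 for tra1-1 (5.93%, beside 7.85%). The median difference of the members kept its sign throughout. The median gap between paralogs was 0.233 with the lower probe ID alone, and that between oligonucleotides lay between 0.141 and 0.242 when each array was left out. The cause of these shifts was not tested.

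Of 57 named genes under the alternatives, 884 of 965 group differences kept direction and side, 15 passed the test only there, and 66 changed sign, none of which passed in either setting. As deposited these were rpl701 (-0.026), rpl901 (-0.021) and rpl902 (-0.035), with quantile normalization rps23 (0.0036) and with scale normalization rpp0 (0.0043). With the lower probe ID they were rpl1001 (0.063), rps001 (0.078), rpp0 (0.053), rpp103 (0.022), rpl3702 (-0.049), rpl702 (0.095) and rpp1 (0.116). With the higher probe ID they were rps1501 (0.043), rpl301 (0.034), rpl3602 (-0.004), rpl1801 (0.102), rpp102 (0.077), rpl3402 (-0.092), rpl701 (-0.024), rpl901 (-0.0088), rpl902 (-0.181) and rpp40 (-0.048). With the replicate block they were rpp0 (0.021), rpp102 (0.113), rps2602 (0.035) and rps23 (0.027), and with array weights rpp0 (0.018), rpp102 (0.058) and rps23 (0.014). When each array was left out in turn, sign changes gave ranges of -0.494 to 0.030 (rpl1001), -0.0018 to 0.233 (rpl1701), -0.122 to 0.010 (rpl1801), -0.261 to 0.0058 (rpl2702), -0.247 to 0.029 (rpl301), -0.018 to 0.145 (rpl3702), -0.082 to 0.218 (rpl701), -0.250 to 0.228 (rpl702), -0.106 to 0.073 (rpl803), -0.108 to 0.182 (rpl901), -0.061 to 0.082 (rpl902) and -0.186 to 0.153 (rpp0). The others were -0.349 to 0.129 (rpp1), -0.174 to 0.113 (rpp102), -0.238 to 0.230 (rpp103), -0.285 to 0.061 (rps001), -0.018 to 0.240 (rps1401), -0.837 to 0.056 (rps1501), -0.038 to 0.180 (rps1502), -0.084 to 0.076 (rps23), -0.232 to 0.074 (rps2602), -0.160 to 0.576 (rps2802), -0.189 to 0.036 (rps29) and -0.032 to 0.100 (rps601). Signal over background could not be assessed from ratios.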
